A study of Mus musculus with 24 samples.

Results

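The mitosis genes are 58 genes that act between the onset of chromosome condensation and the separation of daughter cells. They were chosen by name, as the rows of the deposited read count table that carry the symbols of the list, and all 58 were found among the 24421 genes of that table. Every one of them had reads in all 24 libraries. The libraries were made from T cells sorted by flow cytometry out of the marrow of female CByB6F1 mice that had immune bone marrow failure (BMF) and were 2 to 5 months old. CByB6F1 is a hybrid of the BALB/cBy and C57BL/6 strains, and the way in which marrow failure was induced is not given in the sources used here. Mice were untreated, or received cyclosporine (CSA), ruxolitinib (RUX, at low dose per the series title), or RUX+CSA, and all groups, the untreated one included, carried the disease, so no healthy marrow entered any comparison. CD8 and CD4 T cells gave 8 groups of 3 libraries, each library a pool of cells from 2 to 3 mice of a group, numbered as pools 1 to 24 in the labels.

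Cells commit to mitosis when cyclin B and its kinase Cdk1 become active, which CDC25 phosphatases bring about by removing inhibitory phosphates. Condensin and topoisomerase II then compact and untangle the chromosomes, kinetochores attach them to spindle microtubules built by kinesins and other binding proteins, and the spindle checkpoint holds back the anaphase-promoting complex until all are attached. Many of these genes are transcribed late in the cell cycle, and in T cells their RNA is known as a mark of dividing cells. CSA inhibits calcineurin and thereby T cell receptor signalling through NFAT, and RUX inhibits the kinases JAK1 and JAK2.

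Late cell cycle promoters are known for the cell cycle homology region, a short element bound by the DREAM and MuvB-B-Myb-FoxM1 complexes, and for CCAAT boxes, which bind NF-Y. The promoters of 7 members are printed because these genes carry the contrasts described below: Ccnb2, Cdc20 and Top2a moved with the bulk of the list, Cenpf and Kif20b were the members called lower in CD8 T cells given RUX+CSA, Pttg1 followed the others least, and Cdc25b did so loosely. Sequences are from RefSeq on GRCm38.p6, 5′ to 3′ on the gene's strand, from 120 bases before to 30 bases after the annotated start. Capitals mark TTTGAA or TTCGAA (cell cycle homology region) and CCAAT, each on either strand.
Ccnb2 (chr9:70421525-70421674, minus strand): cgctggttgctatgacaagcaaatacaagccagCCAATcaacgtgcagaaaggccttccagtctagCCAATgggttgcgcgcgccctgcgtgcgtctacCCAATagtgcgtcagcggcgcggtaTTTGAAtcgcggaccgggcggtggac
Cdc20 (chr4:118437314-118437463, minus strand): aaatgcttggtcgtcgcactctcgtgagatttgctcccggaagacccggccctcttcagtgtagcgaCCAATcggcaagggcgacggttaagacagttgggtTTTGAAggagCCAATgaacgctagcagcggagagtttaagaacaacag
Top2a (chr11:99024160-99024309, minus strand): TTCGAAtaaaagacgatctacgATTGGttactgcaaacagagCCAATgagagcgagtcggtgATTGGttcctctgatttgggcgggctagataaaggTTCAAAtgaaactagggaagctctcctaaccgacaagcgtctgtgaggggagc
Cenpf (chr1:189688057-189688206, minus strand): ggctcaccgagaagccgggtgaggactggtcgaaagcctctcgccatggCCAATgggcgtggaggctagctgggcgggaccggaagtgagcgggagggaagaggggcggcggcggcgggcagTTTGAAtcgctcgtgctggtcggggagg
Kif20b (chr19:34922238-34922387, plus strand): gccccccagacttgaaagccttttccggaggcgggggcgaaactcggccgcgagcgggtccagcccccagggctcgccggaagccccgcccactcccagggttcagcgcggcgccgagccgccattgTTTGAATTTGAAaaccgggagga
Cdc25b (chr2:131186828-131186977, plus strand): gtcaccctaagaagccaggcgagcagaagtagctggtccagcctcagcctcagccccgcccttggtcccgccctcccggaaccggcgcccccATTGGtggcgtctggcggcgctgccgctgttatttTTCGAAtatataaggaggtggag
Pttg1 (chr11:43425952-43426101, minus strand): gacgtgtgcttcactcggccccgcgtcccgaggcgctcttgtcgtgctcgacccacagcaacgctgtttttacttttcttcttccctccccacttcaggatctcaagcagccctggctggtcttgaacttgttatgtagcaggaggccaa
The 3 CCAAT boxes of Ccnb2 stand upstream of a single TTTGAA, while Kif20b has TTTGAA in tandem and no CCAAT in this window. No capitals appear in the stretch from Pttg1, which says only that these letters are absent from it. RefSeq promoters of 300 bases were matched for 47 of the 58 members, giving 49 promoters. TTTGAA or TTCGAA occurred in 79.6% of them, against 19.2% of all 32851 promoters of that length. Between 60 bases before and 40 bases after the start the shares were 69.4% and 5.66%. CCAAT occurred in 75.5% of the members' promoters and 37.4% of all, and both kinds of motif in 69.4% and 7.52%. The members without TTTGAA or TTCGAA were Birc5, Ccnb1, Cenpe, Mad2l1, Ncaph, Nek2, Nuf2, Nusap1, Pttg1 and Tacc3.

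Total counts ran from 16912085 to 34550183 per library, and the lowest count of a member named with values below was 103, for Cdc25c. In CPM, the counts normalised to the library total, Cd8a lay between 730 and 1153 in the CD8 libraries and between 1.16 and 7.78 in the CD4 libraries, and Cd4 between 1176 and 1720 CPM in the CD4 libraries and at most 1.16 in the CD8 libraries. Over the 1000 most variable genes, the 6 CD8 libraries of the untreated and RUX+CSA groups and 11 of the 12 CD4 libraries lay closest to their own group. None of the 6 CD8 libraries of the single-drug groups did. CD8 CSA pool 6 and CD8 RUX pool 7 stood furthest from their groups (r with the rest of the group -0.65 and -0.62). Some results that rest on these pools are therefore also given without both, mostly as counts of members called. CSA pool 6 was most like the CD8 RUX group (r = 0.28), and RUX pool 7 most like CD8 RUX+CSA (0.36). The mean of NK cell markers (log2 CPM) was 2.31 in RUX pool 7 and 2.14 and 2.29 in CSA pools 4 and 5. It was 1.09 in CSA pool 6 and 0.77 and 0.74 in RUX pools 8 and 9. Erythroid markers divided these pools alike, B and plasma cell markers did not. Whether labels were exchanged was not tested, and all CD8 comparisons take them as given. Labels state separate pools but not whether sorting or library preparation shared a day, so p-values measure the spread between these pools, part of which may be technical. Whether CD8 and CD4 pools came from the same mice is not stated either, and comparisons between cell types took them as independent.

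The members together took between 0.283% and 0.916% of a library's counts. Levels are compared between genes as mean CPM per kilobase of the gene model (CPM per kb). The highest was that of Smc4, an ATPase subunit of condensin, at 112.9 CPM per kb, followed by Ube2c, the ubiquitin-conjugating enzyme of the anaphase-promoting complex, at 89.4, and cyclin B2 (Ccnb2) at 89.0. Cdk1 stood at 25.8 and Mki67, which encodes the Ki-67 protein of dividing cells, at 26.4. The lowest were Cdc25c at 8.03, the kinetochore protein gene Cenpf at 5.15 and Anln, an actin-binding protein of the cleavage furrow, at 4.65. The members also differed in how far they ranged. The highest library held 9.46 times the CPM of the lowest for Cenpf and 8.01 times for Cdc25c, but 1.98 times for Smc4 and 1.45 times for Pttg1, which encodes securin, the inhibitor of separase.

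A score for each library, the mean over the 58 members of log2 CPM, put the CD8 groups close together and split the CD4 groups by CSA. In CD8 T cells the untreated pools scored 7.05, 6.62 and 6.83, the CSA pools 7.07, 6.77 and 6.61, the RUX pools 6.28, 7.03 and 6.59, and the RUX+CSA pools 6.64, 6.41 and 6.58. All 4 CD8 groups overlapped in part, and the group means lay between 6.55 ± 0.12 (SD, n = 3, RUX+CSA) and 6.83 ± 0.21 (untreated). In CD4 T cells the untreated pools scored 6.91, 5.79 and 6.42 and the RUX pools 6.18, 6.72 and 5.87. The CD4 CSA pools scored 5.89, 5.64 and 5.17 and the RUX+CSA pools 5.65, 5.16 and 5.70. Of the CD4 pools without CSA, untreated pool 14 and RUX pool 21 lay within the range of the pools given it. Group means in CD4 T cells were 6.37 ± 0.56 (untreated), 6.26 ± 0.43 (RUX), 5.57 ± 0.37 (CSA) and 5.50 ± 0.30 (RUX+CSA). In a sorted pool, fewer dividing cells and less of these RNAs per dividing cell cannot be told apart.

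**Figure D1:**
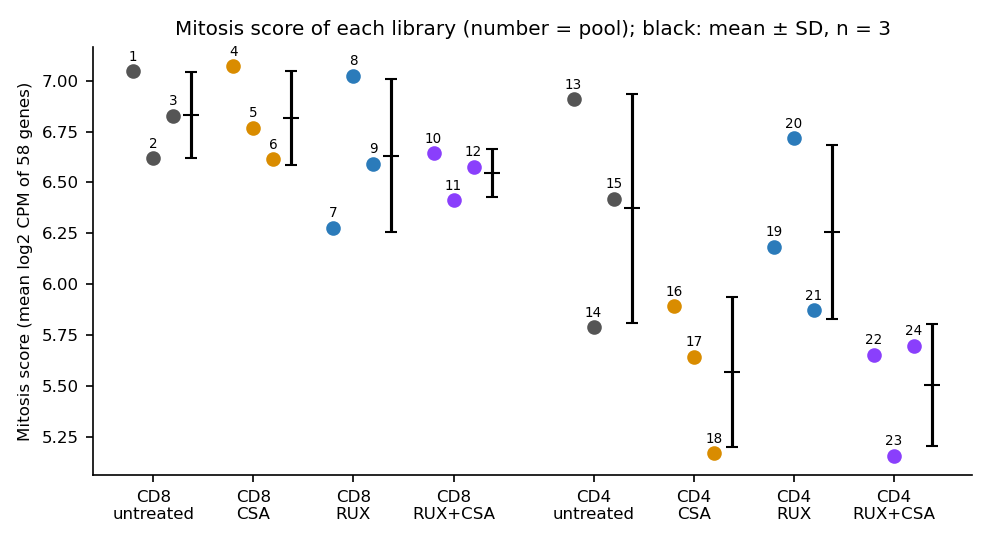
Score of the 58 mitosis genes (mean log2 CPM, vertical axis) for each of the 24 pools by cell type and treatment; points are pools, and bars with whiskers are group means ± SD of 3 pools. The CD8 means lie between 6.55 and 6.83, and the CD4 means fall from 6.37 and 6.26 without CSA to 5.57 and 5.50 with it.

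The members rose and fell as a block from pool to pool. As a description over the 12 libraries of a cell type, which share the score's own totals and depth, the median Pearson r of a member with the mean of the other 57 was 0.94 in CD8 and 0.96 in CD4 T cells. In CD8, 43 members and in CD4, 54 members had an r above 0.9. Tpx2, which nucleates spindle microtubules, followed the others most closely in CD8 (r = 0.98), and Cdca8, a subunit of the chromosomal passenger complex that carries Aurora B, did so in CD4 (r = 0.99). Pttg1 did not follow them (r = 0.19 in CD8 and 0.04 in CD4), and Cdc25b, one of the phosphatases that activate Cdk1, followed them loosely (0.54 and 0.49). Racgap1, a subunit of the centralspindlin complex of cytokinesis, had r = 0.35 in CD8 and 0.93 in CD4. The CD8 value includes RUX pool 7, which had the lowest CD8 score (6.28) but 342 CPM of Racgap1. An r without that pool was not computed, so a difference between cell types cannot be read from these values. The kinesin gene Kif15 had r = 0.92 in CD8 and 0.67 in CD4.

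Among 12200 tested genes outside all lists, those whose log2 CPM was most like the score over the 24 libraries were Esco2 (r = 0.98), Tmpo (0.98), Asf1b (0.97), C330027C09Rik (0.97), Kpna2 (0.97), 2810417H13Rik (0.97), Fignl1 (0.97), Dnmt1 (0.97), Traip (0.97) and Sapcd2 (0.97). Within CD8 the first 3 were Anp32e (0.96), Traip (0.96) and Polq (0.95), and within CD4 Tubb5 (0.98), Asf1b (0.98) and Fignl1 (0.97). A list of 67 other mitosis genes had an r of 0.995 with the score in each cell type. A list of 43 S phase genes, for DNA replication, had an r of 0.99 with the score in CD4 and of 0.80 in CD8. The CD8 scores spanned less (6.28 to 7.07) than the CD4 scores (5.16 to 6.91). The CD8 value also includes CSA pool 6, whose mitosis score minus S phase score was -0.16, against 0.31 and 0.27 in CSA pools 4 and 5. An r without that pool was not computed, so a difference between cell types cannot be read from these values. The mitosis score exceeded the S phase score by 0.25 in untreated CD8 and by 0.05 in RUX+CSA-treated CD8 pools, and by 0.26 and 0.05 in the same CD4 groups.

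**Figure D2:**
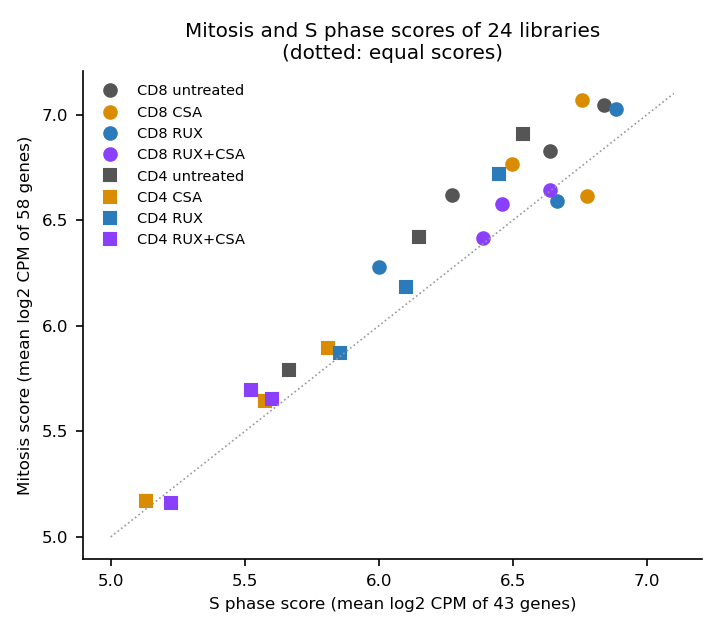
Mitosis score against the mean log2 CPM of 43 S phase genes in each of the 24 libraries, coloured by cell type and treatment; the dotted line marks equal values. The points follow one band (r = 0.99 over the 12 CD4 and 0.80 over the 12 CD8 libraries), with CD4 pools given CSA at its low end.

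The first comparisons asked how CSA changed the members in CD4 T cells. All 58 lay below 0 on the log2 scale when the 6 CD4 pools given CSA (CSA and RUX+CSA) were set against the 6 without it (untreated and RUX), with a median log2 fold change of -0.86 (51.0% of all genes lay below 0). By edgeR's quasi-likelihood test with Benjamini-Hochberg adjustment over 13175 genes, 15 members were lower at an adjusted p below 0.05 and none was higher, where 7.16% of all genes tested were called (3.39% lower). At an unadjusted p below 0.05 there were 55 members, against 22.6% of all genes. This comparison of both CSA groups with both others was added after the data had been seen. The called members came from 8 of 10 role groups, so the calls were spread over the stages of mitosis.

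The Ki-67 and topoisomerase II genes were lower in mean but did not pass the threshold. Mki67 read 402, 161 and 228 CPM in untreated, 204, 270 and 165 in RUX, 186, 179 and 115 in CSA and 146, 108 and 122 in RUX+CSA pools. Its log2 fold change with CSA was -0.74 (SE 0.24, edgeR adjusted p = 0.0941). Top2a, the topoisomerase that untangles sister chromatids, read 539, 265 and 336 CPM in untreated, 286, 429 and 256 in RUX, 259, 244 and 138 in CSA and 241, 216 and 255 in RUX+CSA pools (-0.64, SE 0.22, edgeR adjusted p = 0.119). The pools overlapped for both genes, for Mki67 through untreated pool 14 and RUX pool 21, and for Top2a through RUX pool 21.

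Of the 8 cyclins and mitotic kinases, all below 0 with CSA, 2 passed the threshold, and the group's median was -0.90. Ccnb2, the cyclin B partner of Cdk1 with 3 CCAAT boxes in the stretch printed above, read 205, 99.9 and 154 CPM in untreated, 127, 208 and 89.7 in RUX, 91.1, 64.7 and 51.5 in CSA and 67.2, 47.1 and 71.2 in RUX+CSA pools. CSA pool 16 and RUX pool 21 were nearly level, and all other pools given CSA lay below all pools without it. The log2 fold change of Ccnb2 was -1.17 (SE 0.26, edgeR adjusted p = 0.0294). Aurkb, the Aurora kinase that corrects faulty microtubule attachments, fell by 0.90 on the log2 scale (SE 0.22, edgeR adjusted p = 0.0348). Plk1, the polo-like kinase of mitotic entry, gave -0.90 (edgeR adjusted p = 0.0532), Ccnb1 -0.89 (0.0708), Cdk1 -0.79 (0.106) and the cyclin A gene Ccna2 -0.90 (0.088), none past the threshold.

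Among the switch phosphatases and the transcription factor, Cdc25c stood out. Cdc25c, which removes the inhibitory phosphates from Cdk1, read 22.0, 13.3 and 16.2 CPM in untreated, 16.9, 19.3 and 9.53 in RUX, 11.3, 8.09 and 7.98 in CSA and 8.22, 3.34 and 6.99 in RUX+CSA pools. Every RUX+CSA pool lay below every pool without CSA. Its log2 fold change with CSA was -1.11 (SE 0.24, edgeR adjusted p = 0.015). Foxm1, the transcription factor of late cell cycle genes, gave -0.80 (SE 0.26, edgeR adjusted p = 0.0933). Cdc25b, whose printed promoter stretch holds both kinds of motif, gave -0.07 (SE 0.18, edgeR adjusted p = 0.863).

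In the 9 genes of the spindle checkpoint and anaphase-promoting complex, only Mad2l1 passed. Mad2l1, the checkpoint protein that sequesters Cdc20, read 133, 79.2 and 107 CPM in untreated, 89.0, 134 and 75.4 in RUX, 70.1, 59.7 and 52.1 in CSA and 54.3, 41.7 and 60.5 in RUX+CSA pools. The 6 pools given CSA all lay below the 6 without it, and the log2 fold change was -0.87 (SE 0.17, edgeR adjusted p = 0.0118). Cdc20, the activator of the anaphase-promoting complex, gave -0.82 (SE 0.25, edgeR adjusted p = 0.0808). The checkpoint kinase gene Bub1b gave -0.90 (SE 0.26, edgeR adjusted p = 0.0704). Pttg1 lay between 55.8 and 80.8 CPM over all 24 libraries and gave -0.06 (SE 0.08, edgeR adjusted p = 0.736).

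Of 7 kinetochore genes 2 passed and of 4 passenger genes 1, with medians of -0.77 and -0.87. Those that passed were Cenpa, the histone H3 variant of centromeres (-0.77, SE 0.16, edgeR adjusted p = 0.0194), Ndc80, which binds microtubules (-0.90, SE 0.22, edgeR adjusted p = 0.0384), and Cdca2, a targeting subunit of protein phosphatase 1 listed with the passenger genes (-0.80, SE 0.19, edgeR adjusted p = 0.0254). Incenp, the scaffold of the passenger complex, gave -0.44 (SE 0.19, edgeR adjusted p = 0.201). Cenpf, a large kinetochore protein, had the most negative value of all members and the widest error. It read 88.5, 31.0 and 55.6 CPM in untreated, 34.1, 67.6 and 27.1 in RUX, 30.3, 28.6 and 11.7 in CSA and 18.0, 11.5 and 24.0 in RUX+CSA pools. RUX pool 21 lay below CSA pools 16 and 17, so the groups overlapped, and the log2 fold change was -1.29 (SE 0.37, edgeR adjusted p = 0.0699).

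Motors and spindle proteins gave 7 of the 15 calls. Ckap2, a microtubule-binding protein of the spindle poles (gene span chr8:22168152-22185819 in mm10, minus strand), had the smallest p. It read 64.4, 37.9 and 44.0 CPM in untreated, 33.0, 54.0 and 31.8 in RUX, 29.3, 23.4 and 16.7 in CSA and 23.9, 22.7 and 25.1 in RUX+CSA pools, with no overlap between pools with and without CSA. Its log2 fold change was -0.90 (SE 0.18, edgeR adjusted p = 0.00949). Kif20b, a kinesin of the midzone and midbody, read 71.4, 39.9 and 56.9 CPM in untreated, 50.5, 66.1 and 45.1 in RUX, 38.1, 38.4 and 24.2 in CSA and 30.4, 17.9 and 32.4 in RUX+CSA pools. The pools given CSA again lay below all others, and its log2 fold change was -0.87 (SE 0.19, edgeR adjusted p = 0.0206). Kif11, the motor that pushes spindle poles apart, gave -1.05 (SE 0.24, edgeR adjusted p = 0.0324), and Kif23, the centralspindlin motor, -0.78 (SE 0.18, edgeR adjusted p = 0.0274). Nusap1, which bundles spindle microtubules, fell by 1.01 on the log2 scale (SE 0.20, edgeR adjusted p = 0.019), Ckap2l by 0.95 (edgeR adjusted p = 0.0404) and Prc1, which bundles the midzone, by 0.55 (edgeR adjusted p = 0.0235).

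Of the 3 cytokinesis genes, with a median of -0.69, Racgap1 passed. Racgap1, which works with Kif23 in the midzone (gene span chr15:99620496-99651656 in mm10, minus strand), read 293, 166 and 185 CPM in untreated, 172, 249 and 158 in RUX, 130, 140 and 126 in CSA and 129, 108 and 122 in RUX+CSA pools. The pools given CSA all lay below the others (-0.69, SE 0.15, edgeR adjusted p = 0.0179). None of the 5 condensin genes passed, with a median of -0.73, and Smc4, the most abundant, gave -0.20 (SE 0.08, edgeR adjusted p = 0.176). In all, 8 members (Ckap2, Mad2l1, Racgap1, Kif20b, Kif11, Kif22, Hmmr and Tpx2) had no overlap between the 6 and 6 pools, all lower with CSA, where 1.65% of all genes were lower without overlap.

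**Figure D3:**
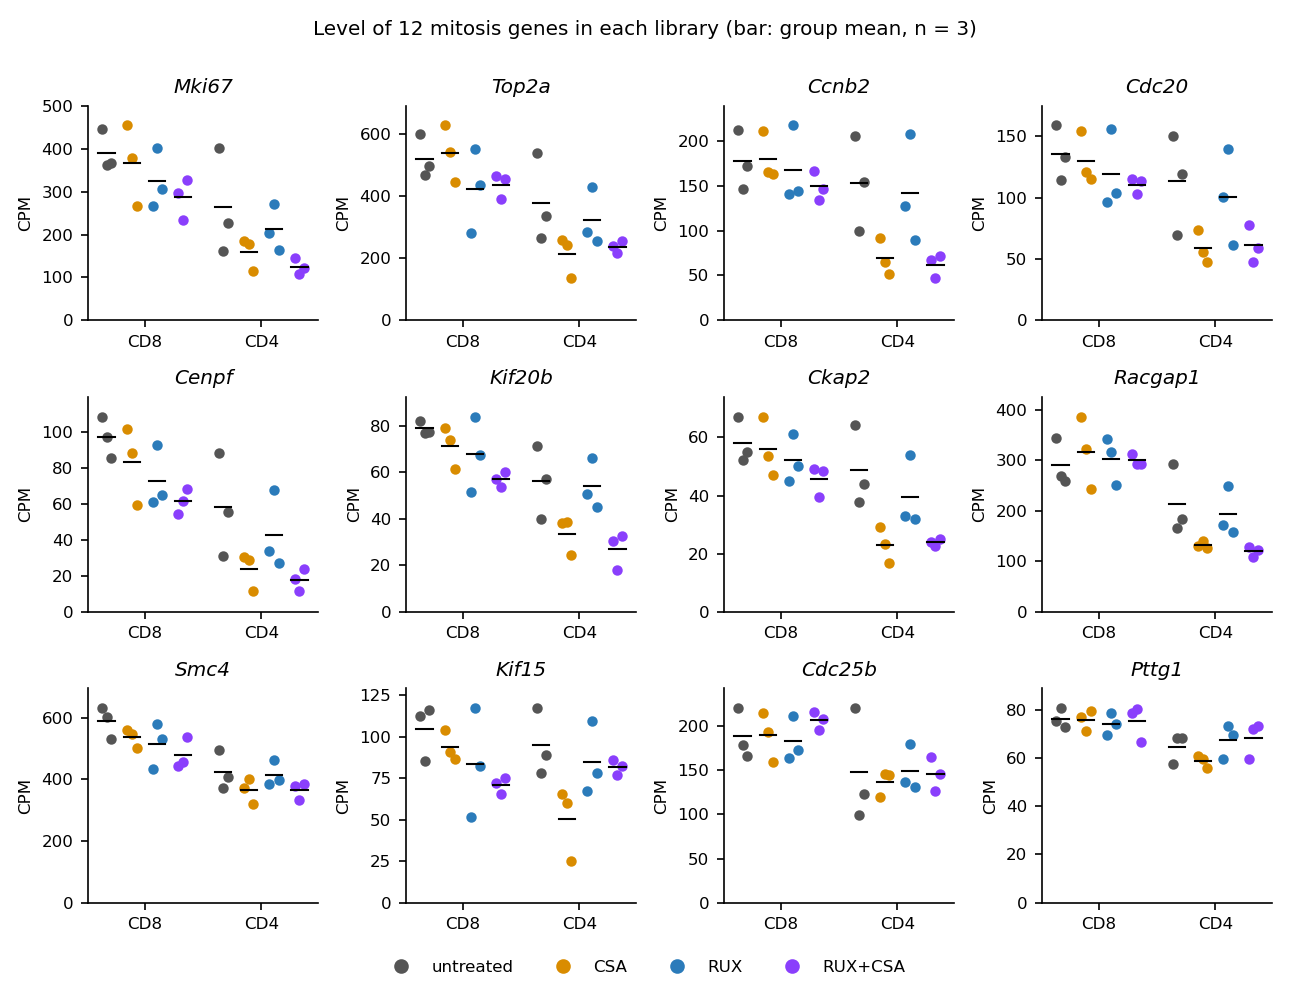
CPM of 12 members in each pool, by cell type and treatment, with points for pools and bars for group means. Ckap2, Kif20b and Racgap1 are lower in all CD4 pools given CSA than in all CD4 pools without it, while Pttg1 stays between 55.8 and 80.8 CPM in all 24 pools.

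Other lists moved in the same CD4 comparison. Of 67 other mitosis genes 36 were lower and none higher by edgeR, with a median of -0.78, and of 43 S phase genes 26 were lower (median -0.67). E2f1 stands in both the S phase list and that of the regulators. Among 20 regulators of mitotic transcription 5 were lower, with Rbl2 at -0.29 (edgeR adjusted p = 0.0182), Rbbp4 at -0.25 (0.0238) and E2f7 at -0.83 (0.0403). Of 15 cell cycle inhibitors 3 were higher and 3 lower, among them Btg2, an antiproliferative gene, at 0.46 (edgeR adjusted p = 0.00647) and Cdkn2b at -1.25 (0.00341).

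Markers of other marrow cells also differed between these CD4 groups. Summed neutrophil markers (18 genes) lay between 98.3 and 9163 CPM in untreated, 4182 and 8120 in RUX, 3718 and 18120 in CSA and 8724 and 10770 in RUX+CSA pools. Summed erythroid markers, of which the 6 globin genes stood at 0 in the untreated, RUX and RUX+CSA pools and 4 of them in the CSA pools, lay between 52.6 and 138.2 CPM in untreated, 83.3 and 118.6 in RUX, 342.3 and 556.8 in CSA and 204.9 and 568.2 in RUX+CSA pools. Of the markers tested by edgeR, 1 of 18 neutrophil, 4 of 12 erythroid and 3 of 9 B and plasma cell markers were higher with CSA, where 7.16% of all genes were called in either direction. Of 15 macrophage and monocyte markers none was higher and 2 were lower (C1qc and Mrc1), and their sum lay between 685.9 and 1615 CPM in untreated, 643.2 and 1215 in RUX, 980.7 and 2773 in CSA and 1219 and 1587 in RUX+CSA pools. The mean of these markers (log2 CPM) ranked the groups differently. It lay between 3.97 and 5.14 in untreated and between 2.59 and 3.58 in RUX pools. In CSA pools it lay between 3.15 and 4.32, and in RUX+CSA pools between 2.58 and 3.18. Only CSA pool 16 lay above the lowest untreated pool, so by this mean the untreated pools were the richest in these markers. None of the 8 stem and progenitor, 8 NK cell and 6 platelet markers tested was called. Of 12 T cell identity genes 2 were higher, and over the 12 CD4 libraries, which share treatment groups, their mean had a correlation of -0.777 with the mitosis score. With the mean of 58 neutrophil, erythroid, B and plasma cell, and stem and progenitor markers as a covariate, the members' median was -1.13. No member was called and the smallest edgeR adjusted p was 0.0599. Macrophage and monocyte, NK cell and platelet markers were not part of this covariate. Treatment groups accounted for 61% of that covariate's variance in CD4. The part of these cells in the result was not tested beyond this fit.

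Leaving out single pools moved this count between 4 (without RUX+CSA pool 23) and 50 (without untreated pool 14), with medians between -0.69 and -0.97. Other pools that moved it by more than 1.5 times were CSA pools 17 and 18 (7 and 5 without them), RUX pool 20 (7) and RUX+CSA pools 22 and 24 (9 and 9). Over the 12 refits that each left out 1 pool, 456 to 1209 of all genes were called. DESeq2 called 48 members lower, the 15 included, where it called 6.11% of all genes lower.

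The separate CD4 groups gave fewer calls, and the comparisons with untreated pools share those pools. CSA alone against untreated gave a median of -0.91 with all 58 members below 0 (49.9% of all genes), but no call by edgeR, where 1.48% of all genes were called. At an unadjusted p below 0.05 there were 42 members (16.2% of all genes), 21 members were lower without overlap (10.2% of all genes), DESeq2 called 15 lower (2.16% of all genes), and Ckap2 missed with an edgeR adjusted p of 0.05001. RUX+CSA against untreated gave a median of -0.96 with 57 members below 0 (51.0% of all genes), and 1 call, where 0.744% of all genes were called lower. That member was Cdc25c, at 6.19 ± 2.54 CPM against 17.2 ± 4.41 (SD, n = 3), a log2 fold change of -1.47 (SE 0.34, edgeR adjusted p = 0.0456). In this comparison 46 members had an unadjusted p below 0.05 (16.9% of all genes), 28 were lower without overlap (11.1% of all genes), and DESeq2 called 27 lower (3.71% of all genes). With the marker mean as a covariate no member was called, with a median of -1.34 and a smallest edgeR adjusted p of 0.225. The call of Cdc25c was lost when any one pool but untreated pool 14 was left out, and without that pool 12 members were called. With single pools left out, 58 to 293 of all genes were called.

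Cenpf had the most negative value of all members in each of the 6 comparisons of a treated group with the untreated group of its cell type, from -0.22 (CSA in CD8) to -1.71 (RUX+CSA in CD4), with 3 comparisons in a cell type sharing their untreated pools.

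RUX alone gave smaller values in CD4. The median against untreated was -0.15, no member was called by edgeR (0% of all genes) or DESeq2 (0.117%), none had an unadjusted p below 0.05 (4.16% of all genes), and Mki67 gave -0.31 (SE 0.33, edgeR adjusted p = 1). Without untreated pool 13 this value was 0.13, and that of Top2a 0.11. RUX+CSA against CSA alone gave a median of -0.09 and no call by either tool (0.281% of all genes by edgeR and 1.60% by DESeq2) or at an unadjusted p below 0.05 (9.98% of all genes). Kif15, a kinesin that supports spindle bipolarity (gene span chr9:122951081-123018733 in mm10, plus strand), was the exception in its values, at 85.9, 77.1 and 82.3 CPM with RUX+CSA against 65.6, 60.2 and 24.9 with CSA. These did not overlap (7.97% of all genes were higher without overlap), but the difference of 0.70 (SE 0.32) had an edgeR adjusted p of 0.505. RUX+CSA against RUX gave a median of -0.83 and no call by edgeR (0.782% of all genes), with 36 members at an unadjusted p below 0.05 (14.3% of all genes), 43 lower without overlap (11.3% of all genes) and 10 called lower by DESeq2 (1.98% of all genes). Over both levels of CSA, RUX gave a CD4 median of -0.12 with no call by either tool (0.250% of all genes by edgeR and 1.55% by DESeq2) and none at an unadjusted p below 0.05 (9.82% of all genes).

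With the labels of CSA pool 6 and RUX pool 7 taken as given, no member passed the test for CSA in CD8 T cells. The 6 pools given CSA against the 6 others gave a median of -0.07, with 44 members below 0 (52.3% of all genes). No member was called by edgeR (2.36% of all genes) or DESeq2 (10.2%), and none had an unadjusted p below 0.05 (24.0% of all genes). The medians of the 10 role groups lay between -0.13 and 0.004. Mki67 gave -0.14 (SE 0.14, edgeR adjusted p = 0.568) and Cdk1 0.06 (SE 0.14, edgeR adjusted p = 0.801). Top2a gave 0.04 (SE 0.15, edgeR adjusted p = 0.877). Without CSA pool 6 and RUX pool 7, 1 member, Kif20b, was called. CSA alone against untreated gave a median of -0.01 with no call by edgeR (0% of all genes) or DESeq2 (0.526%) and none at an unadjusted p below 0.05 (9.72% of all genes).

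**Figure D4:**
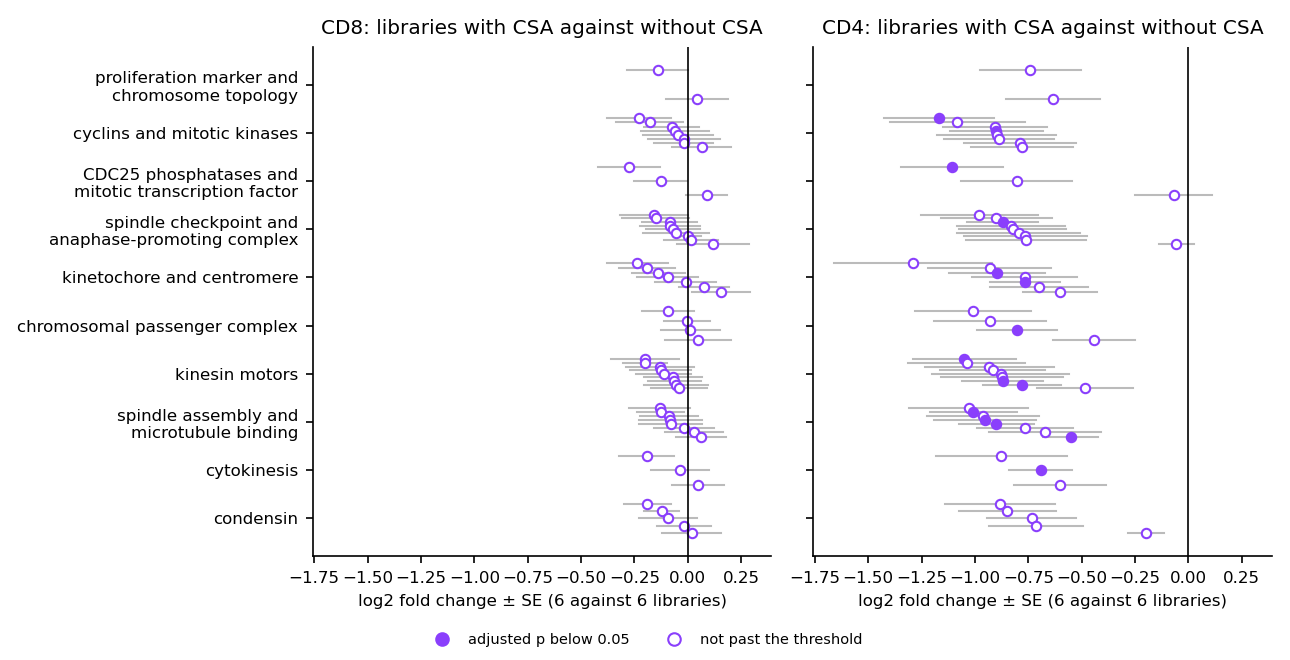
Log2 fold change of each member between the 6 pools given CSA and the 6 without it (± SE), CD8 left and CD4 right, by role; filled points passed an edgeR adjusted p of 0.05. The 58 CD4 values lie below 0 with 15 filled points, and the CD8 values scatter around a median of -0.07 with none.

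Whether the CSA change itself differed between the cell types was tested member by member in the fit of all 24 libraries. All 58 differences, CD8 minus CD4, were above 0, with a median of 0.79, where 49.6% of all genes lay below 0, but no member was called by edgeR (0.0816% of all genes). At an unadjusted p below 0.05 there were 48 members (14.7% of all genes), and DESeq2 called 8 higher (0.867% of all genes). Ccnb2 had the largest difference and Pttg1, at 0.06, the smallest. The smallest p was that of Nusap1, with a difference of 0.99 (SE 0.26, edgeR adjusted p = 0.126). Without CD8 CSA pool 6 and CD8 RUX pool 7, Racgap1 was called, and without CD4 untreated pool 14, Kif20a, a kinesin of cytokinesis. With single pools left out, 1 to 42 of all genes were called. For RUX+CSA against untreated the differences had a median of 0.66, with no call by edgeR (0.0223% of all genes) or DESeq2 (0.656% higher), 9 members at an unadjusted p below 0.05 (14.1% of all genes) and the smallest edgeR adjusted p, 0.199, for Racgap1.

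In CD8 T cells 2 members were called lower with RUX+CSA. Against untreated pools 56 of 58 members lay below 0 (52.8% of all genes), with a median of -0.31, and 2 were called lower by edgeR, where 7.73% of all genes were called lower. Kif20b read 82.2, 77.02 and 77.5 CPM in untreated and 56.9, 53.6 and 60.2 in RUX+CSA pools, without overlap. The means were 78.9 ± 2.87 and 56.9 ± 3.31 CPM (SD, n = 3), a log2 fold change of -0.48 (SE 0.15, edgeR adjusted p = 0.0441). Cenpf read 109, 97.4 and 85.6 CPM in untreated and 54.6, 61.8 and 68.4 in RUX+CSA pools, again without overlap (-0.67, SE 0.20, edgeR adjusted p = 0.046). At an unadjusted p below 0.05 there were 15 members, against 33.7% of all genes, so the members did not stand out from the genes at large by these counts.

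Other members of the CD8 comparison were lower in mean only. Mki67 read 446, 361 and 366 CPM in untreated and 298, 234 and 327 in RUX+CSA pools (-0.46, SE 0.20, edgeR adjusted p = 0.135). These values did not overlap either, as for 18 members in all, where 21.7% of all genes were lower without overlap. Foxm1 gave -0.41 (edgeR adjusted p = 0.126), Kif15 -0.57 (0.105), Ccnb1 -0.45 (0.163), Aurkb -0.35 (0.306), Cdc20 -0.30 (0.255), Plk1 -0.25 (0.484) and Cdk1 -0.05 (0.874). Cdc25b lay above 0, at 0.12 (edgeR adjusted p = 0.557). Among the other lists, 5 of 67 other mitosis genes, 1 of 43 S phase genes (Gins3) and 1 of 20 regulators (E2f7, -0.66, edgeR adjusted p = 0.0417) were lower, shares below the 7.73% of all genes called lower. Of 15 inhibitors 3 were higher and 3 lower, with Gadd45a, a stress gene that restrains Cdk1, at 2.23 (edgeR adjusted p = 0.00154).

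The CD8 calls were sensitive to single pools and to settings. When any one of the 6 pools compared was left out, neither Kif20b nor Cenpf was called. Without CSA pool 6 and RUX pool 7, which enter the fit only through the spread, 12 members were called, both included. The share of all genes called in that fit is not given here. Summed neutrophil markers lay between 13.1 and 1559 CPM in the untreated and between 4616 and 6221 in the RUX+CSA pools. Of the markers tested by edgeR, 6 of 18 neutrophil, 9 of 12 erythroid (median 4.56) and 5 of 8 B and plasma cell markers were higher. So were 4 of 6 stem and progenitor and 3 of 7 NK cell markers. Of 15 macrophage and monocyte markers 2 were higher and 4 lower, none of the 5 platelet markers tested was called, and 3 of 12 T cell identity genes were higher. With the marker mean as a covariate the median was -0.62 and no member was called (smallest edgeR adjusted p = 0.698), and treatment groups accounted for 78.2% of the covariate's variance in CD8.

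Single drugs gave no call in CD8 with the pools labelled as given. RUX against untreated gave a median of -0.18 with 57 members below 0 (49.3% of all genes), no call by edgeR (0% of all genes) or DESeq2 (0.591%), and none at an unadjusted p below 0.05 (5.87% of all genes). The shift depended on single pools: the score difference of -0.200 became -0.023 without RUX pool 7 and -0.397 without RUX pool 8. Over both levels of CSA, RUX gave a median of -0.23 with 57 members below 0 (52.1% of all genes), 14 at an unadjusted p below 0.05 (15.7% of all genes), and no call by edgeR (0.560% of all genes) or DESeq2 (4.00%). The score difference of this comparison, -0.236, became -0.148 without RUX pool 7 and -0.335 without RUX pool 8. Cenpf was the furthest below 0 among the members always described, at -0.43 (SE 0.14, edgeR adjusted p = 0.18). RUX+CSA against CSA gave a median of -0.30 with no call by edgeR (0.0788% of all genes) or DESeq2 (1.99%), 5 members at an unadjusted p below 0.05 (12.6% of all genes) and 13 lower without overlap (10.8% of all genes). RUX+CSA against RUX gave a median of -0.12 with no call by edgeR (0% of all genes) or DESeq2 (3.72%) and none at an unadjusted p below 0.05 (17.3% of all genes). Without CSA pool 6 and RUX pool 7, 1 member, Kif20b, was called in the last comparison.

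CD8 and CD4 T cells were compared within each treatment, and their medians lay further apart in the pools given CSA, a difference for which no single member passed the test given above. In untreated pools all 58 members were higher in mean in CD8 (49.2% of all genes were lower), with a median log2 difference of 0.39, but only Smc4 was called by edgeR, where 17.2% of all genes were called in either direction. Smc4 read 632, 603 and 531 CPM in CD8 and 495, 371 and 408 in CD4 untreated pools (0.47, SE 0.12, edgeR adjusted p = 0.0109). Without CD4 untreated pool 13, 11 members were called, and without CD8 untreated pool 1 or CD4 untreated pool 14, none. Over the 6 refits that each left out 1 pool, 1506 to 2903 of all genes were called. In RUX pools the median was 0.36 and only Racgap1 was called, where 17.9% of all genes were called. Racgap1 read 342, 317 and 251 CPM in CD8 and 172, 249 and 158 in CD4 RUX pools (0.65, SE 0.20, edgeR adjusted p = 0.0295). Without CD8 CSA pool 6 and RUX pool 7 the 1 call was Smc4 instead. No call was made without CD8 RUX pool 8 or CD4 RUX pools 19 or 21, and 4 members were called without CD4 RUX pool 20. With single pools left out, 1491 to 2167 of all genes were called in this comparison.

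In CSA pools 57 of the 58 members were higher in CD8 than in CD4 by edgeR, where 13.6% of all genes were called higher. The median log2 difference was 1.27, and no member's values overlapped, where 22.5% of all genes were higher without overlap. Racgap1 read 387, 321 and 243 CPM in CD8 and 130, 140 and 126 in CD4 CSA pools (1.26, SE 0.20, edgeR adjusted p = 0.000181). Mki67 averaged 367 ± 94.1 CPM in CD8 and 160 ± 39.4 in CD4 (1.20, edgeR adjusted p = 0.00525), and Top2a 539 ± 91.9 and 214 ± 65.8 (1.33, edgeR adjusted p = 0.002; SD, n = 3 each). Cenpf had the widest difference (1.82, SE 0.41, edgeR adjusted p = 0.00355) and Pttg1 the narrowest (0.36, SE 0.10, edgeR adjusted p = 0.0119). Cdc25b was the member that did not pass (0.47, SE 0.21, edgeR adjusted p = 0.111). The other lists moved alike, with 59 of 67 other mitosis genes and 42 of 43 S phase genes higher in CD8, 11 of 20 regulators higher and 5 of 15 inhibitors lower. Leaving out single pools gave 46 to 57 calls (2341 to 2985 of all genes), and without CD8 CSA pool 6 and RUX pool 7 there were 57.

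RUX+CSA pools gave a like picture, with 49 members higher in CD8 than in CD4 by edgeR, where 14.8% of all genes were called higher. The median log2 difference was 1.04, and 56 members were higher without overlap (24.2% of all genes). Racgap1 read 313, 293 and 293 CPM in CD8 and 129, 108 and 122 in CD4 RUX+CSA pools (1.32, edgeR adjusted p = 8.67e-05). Cenpf again had the widest difference (1.79, SE 0.42, edgeR adjusted p = 0.00393). Kif15 was lower in mean in CD8 without passing, with 72.1, 65.7 and 75.4 CPM in CD8 and 85.9, 77.1 and 82.3 in CD4 (-0.21, SE 0.29, edgeR adjusted p = 0.629). These values did not overlap, but the share of all genes lower without overlap is not given here. Ttk, Aurka, Ect2, Nuf2, Dlgap5, Ccnb1, Cdc25b and Pttg1 were higher in mean without passing. The count was 24 without CD4 RUX+CSA pool 23 and 36 to 45 without each of the others (2608 to 3369 of all genes over these refits). Summed neutrophil markers were lower in the CD8 pools, at 918.5 to 3611 CPM against 3718 to 18120 in CSA pools. In RUX+CSA pools they lay at 4616 to 6221 against 8724 to 10770 CPM. Of 15 macrophage and monocyte markers, 5 were lower and 1 higher in CD8 by edgeR in CSA pools (median -1.63). In RUX+CSA pools 3 were lower and 2 higher (-0.98), in untreated 10 and 1 (-2.97) and in RUX 5 and 2 (-1.40). With the marker mean, which leaves these markers out, as a covariate, 57 members were called in CSA and 55 in RUX+CSA pools. The share of all genes called in those fits is not given here. Groups accounted for 71.3% of the covariate's variance over the 24 libraries.

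**Figure D5:**
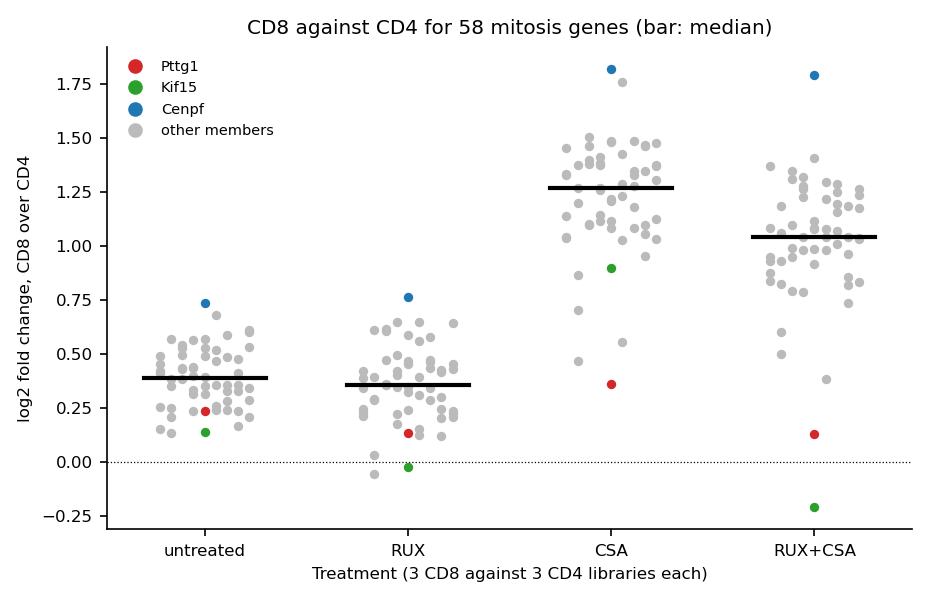
Log2 difference between CD8 and CD4 T cells for each of the 58 members under each treatment; each point is a member, bars are medians, and Pttg1, Kif15 and Cenpf are coloured. Medians are 0.39 in untreated and 0.36 in RUX pools and 1.27 in CSA and 1.04 in RUX+CSA pools, with Kif15 below 0 under RUX+CSA.

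The mean score put the same contrast on 1 scale. CD8 exceeded CD4 by 0.46 in untreated, 0.37 in RUX, 1.25 in CSA and 1.04 in RUX+CSA pools, the last 2 being 2.38-fold and 2.06-fold in geometric mean CPM. With CSA over both levels of RUX the score fell by 0.78 in CD4, to 0.582 of its level, and differed by -0.05 in CD8. No p is given for the score, since it averages members of a chosen list.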

How the data were processed

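RNA of 24 pools was sequenced from libraries made with the SMART-Seq mRNA LP kit, per the labels' protocols. Reads were aligned with STAR to mm10, per the submitters' processing notes, with no version given in the sources used here, and counted per gene with featureCounts 2.0.3, per the file headers. The deposited values are raw counts per gene, and CPM, scores and tests were computed from them here. Each cell type was fitted over its 12 libraries, and comparisons between cell types over all 24, with edgeR 4.0.16 (TMM, filterByExpr by group, robust quasi-likelihood F test, two-sided; R 4.3.3, limma 3.58.1), keeping 12684 CD8, 13175 CD4 and 13476 joint genes. P-values were adjusted by Benjamini-Hochberg over all genes tested, with a threshold of 0.05. Log2 CPM used TMM totals and a prior count of 2. DESeq2 1.42.0 was an alternative, and code was tested on simulated data. The members and lists were chosen with earlier results of these data known, and 5 comparisons that pool treatment groups were added after the data had been seen. Full statistics were given to members past the threshold (the 12 with the smallest p where more passed, named by role), the extremes, 10 members named throughout and the member with the highest mean CPM of each role; of other lists, at most 3 genes. No 2 libraries of a group held identical values. A count of 3 corresponded to 0.0892 to 0.172 CPM, far under any member; depth and the number of pools limit the precision, and errors are SD over pools or SE of the fit.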

Additional observations from a re-analysis of the deposited data

How the results depend on the processing

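All 69 alternative values of the score differences (the median over members, a prior count of 0.5, totals without TMM factors, and CD8 CSA pool 6 with CD8 RUX pool 7 left out) moved by less than 1 SD. Of 93 alternative counts of members called 75 stayed within 1.5 times. Counts of 0 that stayed at 0 are among the 75, and most comparisons had a main count of 0. The 75 therefore say little of how stable the counts above 0 were. The other 18 alternative counts follow. Among the alternatives, calls among all genes are given only for DESeq2 and for fits without single pools. Other alternative counts have no such background beside them. DESeq2 called 27 members in CD4 RUX+CSA against untreated, 15 in CD4 CSA against untreated, 10 in CD4 RUX+CSA against RUX, 48 for CSA over both RUX levels in CD4 and 8 for its difference between cell types. With no filter on low counts the counts were 0 in CD8 RUX+CSA against untreated, 1 in CD4 RUX+CSA against RUX, 0 in CD8 against CD4 RUX pools and 7 for CSA in CD4. RLE size factors gave 1 in CD8 RUX+CSA against untreated. The marker covariate gave 0 in CD8 and in CD4 RUX+CSA against untreated, 0 for CSA in CD4 and 2 in CD8 against CD4 untreated pools. Leaving out CD8 CSA pool 6 and RUX pool 7 gave 12 in CD8 RUX+CSA against untreated, 1 against RUX, 1 for CSA in CD8 and 1 for its difference between cell types. Without single pools the counts ran from 0 to 0 in CD8 RUX+CSA against untreated (426 to 1807 of all genes). In CD4 they ran from 0 to 12 in RUX+CSA against untreated, 0 to 3 in CSA against untreated (48 to 204 of all genes) and 4 to 50 for CSA. For the difference of the CSA change between cell types the counts ran from 0 to 1. Between CD8 and CD4 they ran from 0 to 11 in untreated, 0 to 4 in RUX and 24 to 45 in RUX+CSA pools. The cause was not tested. Small uncalled values of Mki67 and Top2a changed sign; they were followed in every comparison, other uncalled members were not. Leaving out single pools, the values ran as follows: Mki67 from -0.271 to 0.098 and Top2a from -0.076 to 0.173 in CD8 CSA against untreated, Top2a from -0.168 to 0.273 in CD8 RUX+CSA against RUX, from -0.060 to 0.160 for CSA in CD8, from -0.078 to 0.319 in CD4 RUX+CSA against CSA and from -0.165 to 0.131 for RUX in CD4. In CD4 RUX against untreated they ran from -0.562 to 0.133 for Mki67 and from -0.488 to 0.106 for Top2a. With the covariate Top2a was -0.025 in CD8 CSA against untreated, -0.006 in CD8 RUX+CSA against RUX and -0.016 for CSA in CD8. Without CD8 CSA pool 6 and RUX pool 7 Mki67 was 0.090 in the first of these, and Top2a -0.170 and -0.002 in the others. Pool numbers 1 to 24 are each used once, so the labels do not say whether CD8 and CD4 pools came from the same mice. No paired analysis was run, and comparisons between cell types took the pools as independent. The lowest count of a member named with values was 103, and the part of other marrow cells was not tested beyond the covariate fit.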
